A study of Homo sapiens with 4 samples.

Results

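Chromosome 2 carried 14714 of the 190348 peaks of open chromatin counted in this study, or 7.73% of them. Its peaks were taken by chromosome name alone, as all rows of the count table that lie on chromosome 2. The chromosome was singled out because its counts were lower after CECR2 deletion in these same libraries, so every sg1 against control value below describes that choice and supports nothing. Accessibility was measured by ATAC-seq, in which the Tn5 transposase cuts and tags open DNA, in LM2 cells, a human breast cancer line derived from MDA-MB-231 and selected for growth in the lung. The control group held 2 libraries of LM2 cells with a nontargeting guide, and the sg1 group held 2 libraries of LM2 cells in which CECR2 was deleted by means of guide sg1. Every library came from 50000 cells. All cells were grown with puromycin, and no source used here says whether a group was 1 clone or a pool, or whether replicates came from separate cultures; SDs and p-values therefore cover the spread among 4 libraries only, and that spread may be technical.

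CECR2 is a bromodomain protein that works with ISWI remodelling enzymes, which move nucleosomes along DNA. Open chromatin comes in different kinds: promoters at gene starts are mostly open in every cell type, often lie in CpG-rich DNA and vary little, whereas distal enhancers are open in some cell states and closed in others. Chromosome 2 is a large chromosome that carries, among many other genes, the interleukin-1 cluster, the HOXD cluster and the collagen and integrin genes of its long arm.

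Peaks were split by position. A gene-end peak was one that lay no more than 1 kb from the start or the end of a protein-coding gene, and the remainder are called other peaks. There were 1533 gene-end peaks (10.4% of the chromosome's peaks, against 12.9% on other chromosomes) and 13181 other peaks. The first peak started at 11554 and the last ended at 242183596. Median length was 297 bp over all peaks, 623 bp at gene ends and 288 bp elsewhere. Of the 14714 peaks, 14300 held enough counts to test (1524 gene-end and 12776 other), and the 414 that were too low had at most 34 counts in any library. For regional change the chromosome was cut into 49 segments of 5 Mb, numbered from the end of the short arm, with 88 to 523 peaks each.

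The control libraries totalled 25610655 and 18950793 counts, the sg1 libraries 58341297 and 52150389. The median chromosome 2 peak held 34 and 26 control counts and 65 and 57 sg1 counts. Levels are given as CPM, counts scaled to a common library total with TMM factors, and changes as log2 fold changes of sg1 against control with their standard error (SE). At the targeted gene, on chromosome 22, the tallest of 5 tested peaks was at 8.65 and 6.91 CPM in the control and 9.31 and 11.3 in sg1; cuts outside an edited stretch do not check a deletion. The gene-end peaks of 5 genes expressed by MDA-MB-231 derived lines (VIM, CD44, AXL, KRT18 and CAV1) were at 15.4 to 85.8 CPM, and none of the 5 was called. Of 6 markers of other cell types 2 had a tested gene-end peak. CD3E, a T cell receptor subunit, was at 32.0 ± 2.77 CPM in the control (SD, n = 2) and was lower in sg1 (-0.26), and PTPRC, the pan-leukocyte CD45, was at 0.862 ± 0.257 CPM and did not pass (-0.83). A gene-end peak, as defined above, can lie at the start or the end of a gene. The ends were not told apart for these markers, so the values need not be those of promoters. What these peaks had to do with the results on chromosome 2 was not tested.

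Sequences of 8 chromosome 2 promoters are shown because they carry the range of the changes described below: the 3 with the largest losses, the 3 with the largest gains, and the tallest called in each direction. Each is the 250 bases before the start of a gene with 1 listed start, from RefSeq (GRCh38.p14), written 5′ to 3′ on the gene's strand, with CG dinucleotides (CpG sites) in capitals. The losses were at IL1B, the cytokine interleukin-1 beta, at chr2:112836780-112837029 (minus strand), GYPC, the red cell membrane protein glycophorin C, at chr2:126655908-126656157 (plus strand), and GCKR, the glucokinase regulator, at chr2:27496589-27496838 (plus strand). The gains were at TEKT4, a tektin of cilia and flagella, at chr2:94871180-94871429 (plus strand), ALPP, placental alkaline phosphatase, at chr2:232378501-232378750 (plus strand), and NAT8, an acetyltransferase of kidney and liver, at chr2:73642423-73642672 (minus strand). The tallest were TP53I3, a p53-induced oxidoreductase, at chr2:24084835-24085084 (minus strand), and NCL, the nucleolar protein nucleolin, at chr2:231464485-231464734 (minus strand).
IL1B: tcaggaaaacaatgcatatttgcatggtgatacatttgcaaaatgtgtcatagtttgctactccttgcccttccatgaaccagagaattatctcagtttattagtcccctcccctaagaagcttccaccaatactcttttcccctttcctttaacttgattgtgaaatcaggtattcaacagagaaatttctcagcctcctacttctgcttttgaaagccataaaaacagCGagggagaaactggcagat
GYPC: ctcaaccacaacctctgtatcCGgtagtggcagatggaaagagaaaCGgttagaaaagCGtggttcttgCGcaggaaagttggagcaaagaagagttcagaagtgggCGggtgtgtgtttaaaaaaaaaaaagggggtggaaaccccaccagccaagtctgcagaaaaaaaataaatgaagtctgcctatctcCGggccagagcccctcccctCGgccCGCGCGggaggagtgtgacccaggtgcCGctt
GCKR: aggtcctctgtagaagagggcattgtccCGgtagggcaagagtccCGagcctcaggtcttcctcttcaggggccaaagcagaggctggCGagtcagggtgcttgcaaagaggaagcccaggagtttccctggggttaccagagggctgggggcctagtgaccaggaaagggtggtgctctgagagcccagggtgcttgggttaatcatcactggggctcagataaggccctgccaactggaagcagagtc
TEKT4: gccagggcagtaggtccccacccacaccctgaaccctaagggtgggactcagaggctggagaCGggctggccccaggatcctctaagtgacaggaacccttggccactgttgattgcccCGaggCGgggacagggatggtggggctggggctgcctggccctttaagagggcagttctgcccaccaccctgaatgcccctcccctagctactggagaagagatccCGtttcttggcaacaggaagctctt
ALPP: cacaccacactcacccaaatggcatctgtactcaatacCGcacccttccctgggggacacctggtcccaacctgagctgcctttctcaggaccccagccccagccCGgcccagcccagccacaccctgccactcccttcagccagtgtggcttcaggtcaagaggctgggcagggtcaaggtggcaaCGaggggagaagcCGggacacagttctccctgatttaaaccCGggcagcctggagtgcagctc
NAT8: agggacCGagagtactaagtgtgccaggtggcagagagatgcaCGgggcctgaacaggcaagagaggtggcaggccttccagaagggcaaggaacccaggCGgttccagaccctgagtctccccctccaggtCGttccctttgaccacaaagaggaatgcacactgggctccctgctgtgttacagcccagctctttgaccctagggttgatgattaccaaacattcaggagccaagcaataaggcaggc
TP53I3: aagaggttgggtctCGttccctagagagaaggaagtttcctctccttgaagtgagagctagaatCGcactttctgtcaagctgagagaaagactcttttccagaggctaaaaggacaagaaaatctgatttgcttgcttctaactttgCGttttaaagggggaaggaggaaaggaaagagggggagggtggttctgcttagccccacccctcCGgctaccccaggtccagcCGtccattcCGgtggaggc
NCL: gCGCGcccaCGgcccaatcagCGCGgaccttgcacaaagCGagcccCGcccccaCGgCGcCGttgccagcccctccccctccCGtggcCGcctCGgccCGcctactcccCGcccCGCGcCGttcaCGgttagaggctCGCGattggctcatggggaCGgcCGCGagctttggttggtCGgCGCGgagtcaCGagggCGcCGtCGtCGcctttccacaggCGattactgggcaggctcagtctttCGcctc
The CpG sites numbered 1 in IL1B, 11 in GYPC, 3 in GCKR, 4 in TEKT4, 5 in ALPP, 4 in NAT8, 6 in TP53I3 and 34 in NCL. The largest losses and gains here are those among genes with 1 listed start, and ends of other genes, such as RFX8 and GPR55, changed more than some of them.

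The share of counts that fell on chromosome 2, with the start of chromosome 1 left out, was 6.99% in each control library and 6.32% and 6.30% in the sg1 libraries. The groups did not overlap, and the group means differed by -0.15 on the log2 scale. Without the 2 peaks with the highest mean over the 4 libraries, which went the other way and are described below, the difference was -0.16. No measure of DNA content was analysed here, so the number of chromosome copies and the accessibility of each copy cannot be told apart.

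With edgeR's quasi-likelihood test at a false discovery rate (FDR) of 0.05 over all peaks of the genome, 3057 of the 14300 tested chromosome 2 peaks (21.4%) were lower in sg1, beside 16.8% of all tested peaks, and 930 (6.50%) were higher, beside 11.5%. Both sg1 libraries lay below both control libraries at 39.5% of the chromosome's tested peaks, beside 31.9% over the genome, and above them at 22.5%, beside 31.8%. The median change was -1.07 among the lower and 1.12 among the higher peaks, beside -1.05 and 0.87 over the genome. With DESeq2, 1756 were lower (12.3%, beside 9.67% of all peaks tested so) and 281 higher (1.97%, beside 4.59%). With libraries thinned to equal depth, 2169 were lower (18.2%, beside 14.3%) and 591 higher (4.96%, beside 9.60%). Counts of calls were also smaller without either sg1 replicate. Lower peaks made up 76.7% of the calls, 87.6% when the scaling factors came from gene-end peaks alone and 71.9% with library size alone. Over the genome the edgeR calls were 31041 lower and 21269 higher.

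At gene ends, 141 of 1524 tested peaks (9.25%) were lower, beside 7.28% of all tested gene-end peaks, and 123 (8.07%) were higher, beside 21.2%. Among the other peaks 2916 of 12776 (22.8%) were lower, beside 18.2%, and 807 (6.32%) were higher, beside 10.1%. The median log2 fold change of gene-end peaks was 0.01 on chromosome 2 and 0.18 on other chromosomes. That of other peaks was -0.16 on chromosome 2 and -0.01 on other chromosomes. The offset of chromosome 2 was therefore of similar size in both classes, -0.16 at gene ends and -0.15 elsewhere. These 2 offsets were -0.16 and -0.15 also with library size alone, where the chromosome's own medians were 0.062 and -0.11, and with scaling factors from gene-end peaks alone, where they were -0.14 and -0.32. The sign of the gene-end median on chromosome 2 thus depended on the scaling, and with a gene-end distance of 5 kb it was -0.021.

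Among other peaks, at the 5th, 25th, 75th and 95th percentiles of the log2 fold changes, chromosome 2 lay -0.15, -0.15, -0.16 and -0.17 from the other chromosomes. At gene ends the distance grew along the distribution, from -0.04 at the 5th percentile through -0.12 at the 25th and -0.19 at the 75th to -0.22 at the 95th. The upper end of the gene-end distribution thus lay further below that of the other chromosomes than its lower end did. With the libraries paired by replicate number the median of other peaks was -0.12 in pair 1 and -0.13 in pair 2 (computed as log2 of CPM plus 0.5), and that of gene-end peaks was 0.01 and 0.02.

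**Figure D1:**
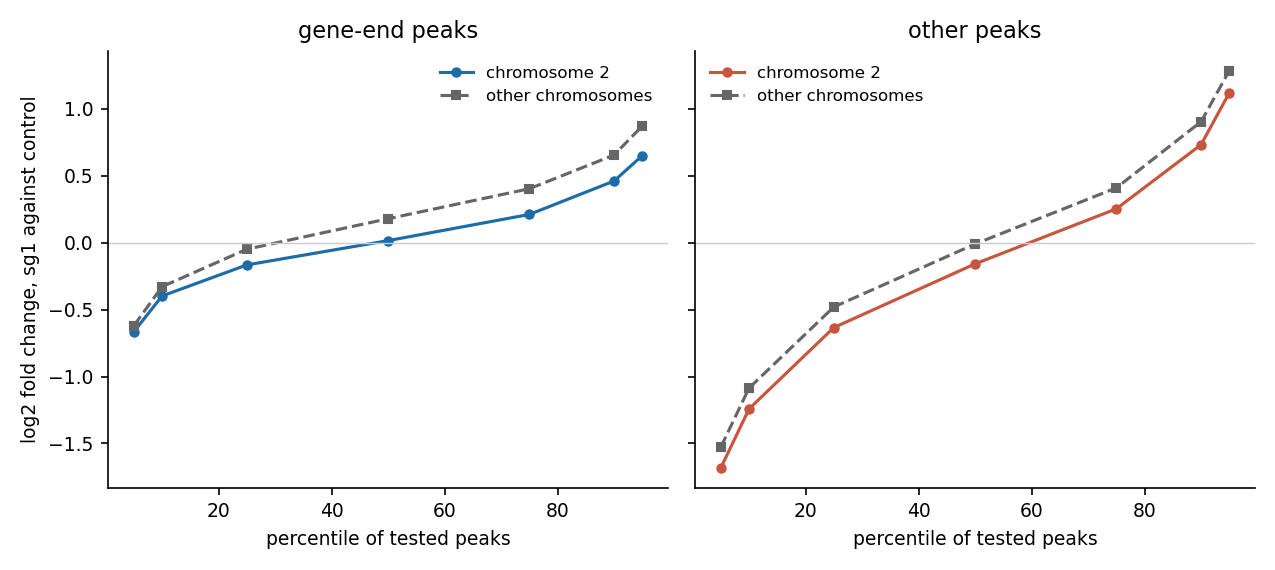
Log2 fold change of sg1 against control (vertical axis) at the 5th, 10th, 25th, 50th, 75th, 90th and 95th percentiles of tested peaks (horizontal axis), for gene-end peaks at the left and other peaks at the right, with chromosome 2 in colour and all other chromosomes in grey. The chromosome 2 curve runs below the grey one by -0.15 to -0.17 for other peaks, and the distance widens from -0.04 to -0.22 at gene ends.

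An offset was present at each level, width and distance from genes examined. Among other peaks, chromosome 2 differed from the other chromosomes by -0.15 at a mean below 1 CPM, -0.14 at 1 to 2, -0.16 at 2 to 5, -0.13 at 5 to 10 and -0.16 at 10 CPM or more. By distance from a gene end the difference was -0.15 at up to 10 kb, -0.16 at up to 50 kb, -0.14 at up to 200 kb and -0.13 beyond 200 kb, and by width it lay between -0.16 and -0.13. The change itself did vary with height: the median of other chromosome 2 peaks was -0.05 below 1 CPM and -0.28 at 10 CPM or more, where 51.4% of 1259 peaks were lower, beside 36.0% of such peaks on other chromosomes.

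Chromosomes as a whole formed a graded series in which chromosome 2 was near the low end. Over the 23 chromosomes the median of other peaks ran from -0.31 on chromosome X to 0.18 on chromosome 7, and chromosome 2 was second from the lowest, followed by chromosome 13 at -0.14 and chromosome 6 at -0.13. At gene ends it was again second, at 0.01, after chromosome X at -0.16 and before chromosome 6 at 0.03. The medians of the classes correlated over the 23 chromosomes at Pearson's r = 0.96 and Spearman's rho = 0.96, a description over medians that share 4 libraries and 1 scaling.

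**Figure D2:**
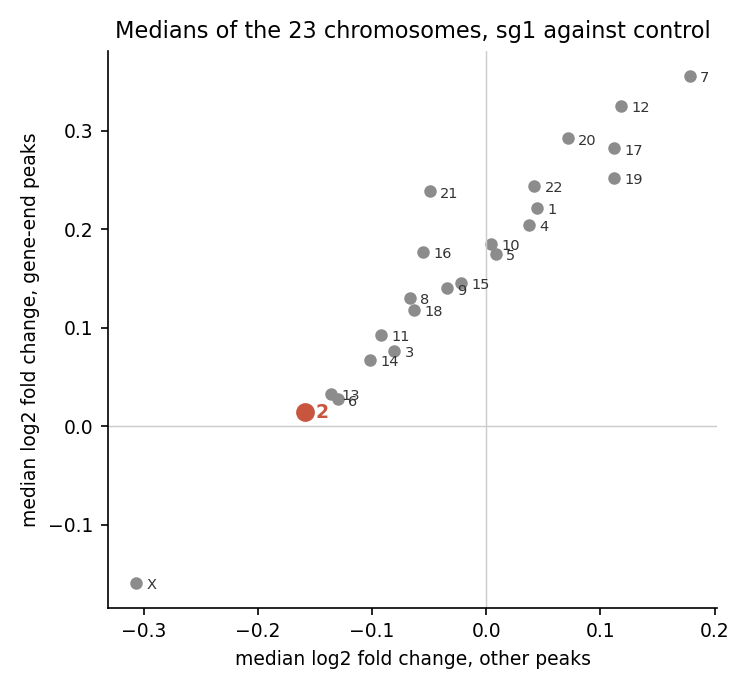
Median log2 fold change of sg1 against control for other peaks (horizontal axis) and for gene-end peaks (vertical axis), with 1 labelled point per chromosome and chromosome 2 in red. The points lie along a rising line from chromosome X at -0.31 and -0.16 to chromosome 7 at 0.18 and 0.36, and chromosome 2 is the lowest autosome on both axes.

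The median of other peaks was below 0 in 47 of 49 segments and ranged from -0.50 to 0.29, with an SD of 0.14 over segments; on other chromosomes 57.8% of 524 segments were below 0, with an SD of 0.17. More peaks were lower than higher in 46 of 49 segments. The gene-end median, in the 46 segments with at least 10 tested gene-end peaks, lay between -0.20 and 0.20, was below 0 in 20 segments, and lay above the median of other peaks in 43. It was below the gene-end median of the other chromosomes in 44 of these 46 segments. The segment medians of other peaks were alike in the replicate pairs, with r = 0.90 and rho = 0.89 over 49 segments and a largest difference of 0.12. Gene-end and other medians of a segment correlated at r = 0.40 and rho = 0.35 over the 46 segments. These correlations are descriptions; segments share libraries and scaling.

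**Figure D3:**
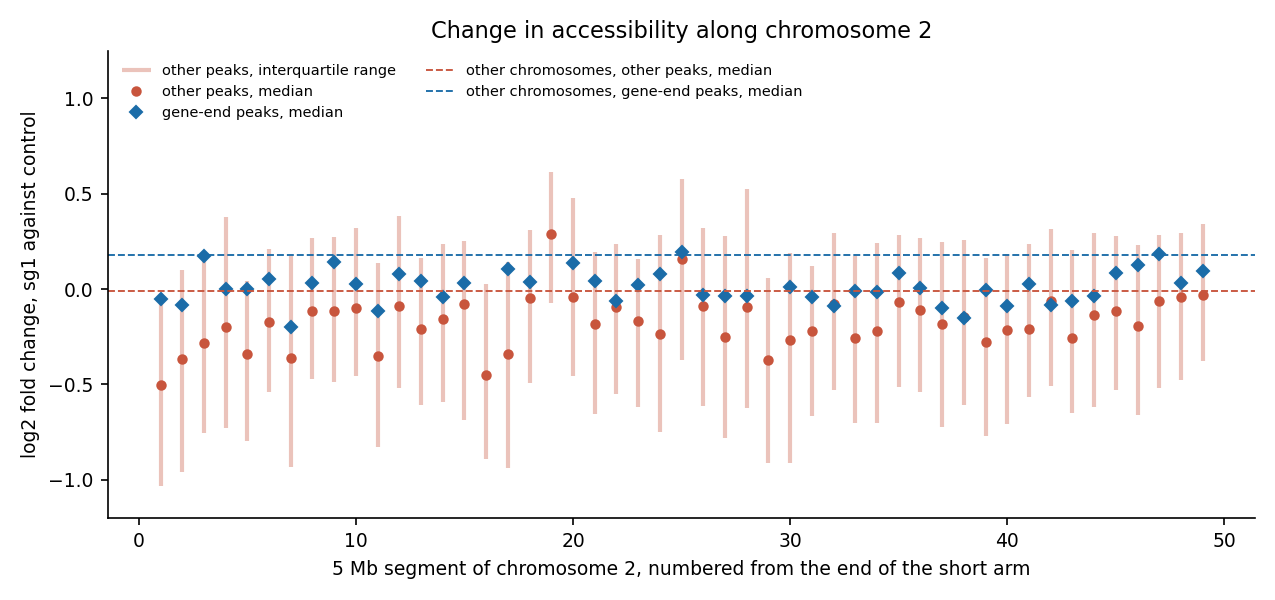
Median log2 fold change of sg1 against control (vertical axis) in each 5 Mb segment of chromosome 2 (horizontal axis), for other peaks (red circles, with bars for the interquartile range) and, where at least 10 were tested, gene-end peaks (blue diamonds); dashed lines are the medians of all other chromosomes. Circles lie below 0 in 47 of 49 segments, and diamonds lie above the circle in 43 of 46.

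When the counts of all peaks in a segment were summed and tested over the 595 segments of the genome, 45 of 49 chromosome 2 segments were lower in sg1, beside 69.4% of all segments, and 1 was higher, beside 21.3%. The median change of a sum was -0.23. Replicates of a group differed by at most 0.05 on the log2 scale in the control and 0.07 in sg1. Sums of gene-end peaks alone were lower in 18 and higher in 6 of 46 segments, beside 17.6% and 53.7% of all segments. Sums of other peaks alone were lower in 47 and higher in 1 of 49, beside 80.6% and 11.6%. The segment that was higher (145 to 150 Mb, segment 30) held the tallest peak of the chromosome, and its sums were 1397 and 1411 CPM in the control and 1748 and 1747 CPM in sg1. Its 242 other peaks had a median of -0.27, with 62 of all 253 tested peaks lower and 13 higher. Without the 2 peaks of the highest mean 46 segments were lower and 0 were higher, with edgeR as before.

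The 4 segments with the lowest medians of other peaks were 0 to 5 Mb (-0.50), 75 to 80 Mb (-0.45), 140 to 145 Mb (-0.37) and 5 to 10 Mb (-0.37). In the first, at the tip of the short arm, summed accessibility was 1437 and 1442 CPM in the control and 1053 and 1063 CPM in sg1 (log2 fold change -0.44, SE 0.0099). There 90 of 226 tested peaks (39.8%) were lower and 7 higher, and the 16 gene-end peaks had a median of -0.05. The loss was spread over that segment, with medians of other peaks from -0.34 to -1.08 in its 5 stretches of 1 Mb, the last of which held 4 peaks. In the next segment, the stretch from 6 to 7 Mb had 11 of 14 other peaks lower and 0 higher and a median of -1.31. The 75 to 80 Mb segment, with 93 tested peaks, held 327 and 332 CPM in the control and 239 and 237 CPM in sg1 (-0.47, SE 0.03), and the 140 to 145 Mb segment 626 and 607 against 455 and 442 CPM (-0.46, SE 0.02). Both are poor in gene-end peaks, with 3 and 5 tested.

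The 4 segments with the highest medians were 90 to 95 Mb (0.29), 120 to 125 Mb (0.16), 240 to 245 Mb (-0.03) and 235 to 240 Mb (-0.04). The first spans the centromere and had no peak from 92043899 to 94207566. Its sums, 347 and 360 CPM in the control and 338 and 345 CPM in sg1, lay lower in both sg1 libraries than in both controls but did not pass (log2 fold change -0.05, SE 0.03), and 8 of its 87 tested peaks were lower and 9 higher. In the 120 to 125 Mb segment, 27 of 222 tested peaks were lower and 36 higher, and its stretch from 120 to 121 Mb, which contains GLI2, had 22 higher and 12 lower of 115 other peaks with a median of 0.28. The sum of that 5 Mb segment did not pass (-0.02, SE 0.0091), at 957 and 939 CPM in the control and 937 and 938 CPM in sg1. Its gene-end and other peaks went opposite ways when summed apart: the gene-end sum was higher (0.20, SE 0.04) and the sum of other peaks lower (-0.06, SE 0.01), although the median of those other peaks was above 0. At the tip of the long arm, 240 to 245 Mb, 19 peaks were lower and 19 higher of 195, and the sums were 1018 and 1037 CPM against 1014 and 1040 CPM, overlapping between the groups. There too the gene-end sum was higher (0.10, SE 0.02) and the sum of other peaks lower (-0.05, SE 0.01).

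Differences between segments made up 1.56% of the variance of log2 fold changes among other peaks, whose SD was 0.88, and gene-end peaks had an SD of 0.49. The variance includes counting noise in single peaks, and 4727 of the 12776 other peaks had a mean below 1 CPM. The part of counting noise in the 1.56% and in both SDs was not tested. These values therefore do not show how large regional change was beside local change. Tested against the median of their own 5 Mb segment, 2140 chromosome 2 peaks (15.0%) were lower, beside 15.3% of all peaks tested so, and 1578 (11.0%) were higher, beside 11.0%. Of these, 2120 lower and 906 higher peaks were also called without that centring. Since every segment of the genome was centred in the same way, the balance of lower and higher calls is set by the centring, and these shares do not separate regional from local change.

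Among peaks with a mean of at least 2 CPM, log2 fold changes of pairs less than 2 kb apart correlated at r = 0.48 (1602 pairs), and those further apart at 0.23 at 2 to 10 kb, 0.11 at 10 to 50 kb, 0.06 at 50 to 200 kb and 0.03 at 200 kb to 1 Mb. On the other autosomes the same values were 0.45, 0.20, 0.13, 0.09 and 0.06. Pairs share libraries, and close pairs may be parts of 1 open stretch. Runs of neighbouring peaks that were all lower reached 9 peaks inside MYT1L, a gene for a neuronal transcription factor, from 1972512 to 2026922, with a median log2 fold change of -0.90. Runs of 8 lay at 6877457 to 7008612 (-1.37), which spans RSAD2, an interferon-induced antiviral enzyme, and RNF144A, a ubiquitin ligase, at 26630752 to 26682615 (-1.40), which spans CIB4, a calcium-binding protein gene, and at 40584469 to 40717269 (-0.98), with no protein-coding gene. Peaks called higher were fewer than those called lower, 930 against 3057, and the part of this in run length was not tested. Run lengths on other chromosomes are not given. Runs of higher peaks were shorter. The longest had 5 peaks, in CYRIA, a regulator of actin through RAC1, from 16622625 to 16651107 (1.07), followed by 4 peaks at 55839146 to 55843716 (1.66). Of the 3 runs of 3 higher peaks listed next, the one at 8583493 to 8592758 had a median of 0.0652 CPM in the control and 0.569 CPM in sg1.

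The 2 peaks with the highest mean over the 4 libraries rose. The choice by that mean favours peaks that rose: in the control alone the second of them, at 40.1 CPM, was below the 4 peaks that follow it in height, which were at 71.1 to 81.2 CPM. A peak of 265 bp inside KIF5C, a kinesin motor gene of neurons, at 148881659 to 148881923, was at 594 and 600 CPM in the control and 1091 and 1093 CPM in sg1 (log2 fold change 0.87, SE 0.03). A peak of 237 bp inside RGPD2, at 87824825 to 87825061, was at 41.9 and 38.4 CPM in the control and 107 and 106 CPM in sg1 (1.41, SE 0.06); RGPD2 belongs to a family of near-identical copies, so the origin of its reads is uncertain. Both peaks were narrow for their height, and the groups were far apart. The 11 peaks at the very start of chromosome 1, within the length of the mitochondrial genome, also were higher in sg1, at 221925 and 218949 CPM in the control and 333023 and 333451 CPM in sg1; their part in the 2 tall peaks was not tested.

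Of the next 4 peaks in height 3 fell. The peak at an end of TP53I3, at 24083825 to 24084965, which also lies in FAM228B, went from 82.4 and 79.4 to 55.9 and 57.9 CPM (-0.51, SE 0.06). A peak inside TTC7A, a gene for a scaffold protein of gut epithelium, at 47033781 to 47034877, went from 76.9 and 79.3 to 60.3 and 58.3 CPM (-0.40, SE 0.06). The peak at 64750609 to 64751751, 95.4 kb from the nearest protein-coding gene, went from 81.8 and 80.6 to 62.3 and 65.7 CPM (-0.34, SE 0.06), a call that was lost against its own segment. A peak inside ATOH8, a helix-loop-helix transcription factor gene, had 70.6 and 71.6 CPM in the control and 66.0 and 62.2 CPM in sg1 and did not pass (-0.15, SE 0.06).

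The largest losses at gene ends were at IL1B, where all 3 named peaks fell. The peak over its promoter, at 112836466 to 112837227, was at 17.4 and 14.8 CPM in the control and 2.71 and 3.96 CPM in sg1 (-2.29, SE 0.16), and the log2 fold changes of those at the other end of the gene were -5.37 and -5.27. RFX8, a gene of the RFX transcription factor family, went from 4.28 and 2.80 to 0.655 and 0.507 CPM at 101474971 to 101475337 (-2.61, SE 0.31). COBLL1, an actin-binding protein gene, went from 3.16 and 3.33 to 0.723 and 0.431 CPM at 164657081 to 164657484 (-2.47, SE 0.32). The peak shared by CAPG, which caps actin filaments, and ELMOD3, at 85392504 to 85392781, went from 1.94 and 2.15 to 0.407 and 0.431 CPM (-2.27, SE 0.37). NEU2, a cytosolic sialidase gene, went from 8.61 and 7.50 to 1.51 and 2.0 CPM at 233033640 to 233034164 (-2.21, SE 0.20). TGOLN2, a gene for a membrane protein of the trans-Golgi network, went from 13.2 and 12.2 to 2.62 and 3.30 CPM at 85318334 to 85319070 (-2.11, SE 0.16). The rule of choice required both sg1 libraries to lie below both controls, so that order is no result. Apart from IL1B, the start and the end of a gene were not told apart, so these need not be promoter peaks.

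The largest gains at gene ends started from low levels. DNAJB2, a heat shock co-chaperone gene, went from 0.146 and 0.587 CPM (3 and 9 counts) to 1.45 and 1.83 CPM at 219286509 to 219286857 (2.26, SE 0.46). PXDN, which encodes a peroxidase that crosslinks basement membrane collagen, went from 0.972 and 0.587 to 4.02 and 3.60 CPM at 1631857 to 1632376 (2.24, SE 0.30). TEKT4 went from 0.827 and 0.587 to 3.89 and 2.87 CPM (2.22, SE 0.32), and ALPP from 0.778 and 0.522 to 2.19 and 2.79 CPM (1.89, SE 0.34); both genes have close copies, so their reads may be shared. GPR55, a lipid receptor gene, started highest and went from 2.33 and 2.94 to 7.50 and 8.83 CPM at 230961026 to 230961649 (1.65, SE 0.19). NAT8 (1.53, SE 0.45) went from 0.486 and 0.261 to 1.06 and 1.19 CPM; its call was lost without control replicate 2 (1.20), without sg1 replicate 2 (1.47) and with DESeq2. CDK15 (1.45, SE 0.26) and LOC124905977 (1.43, SE 0.31) completed the 8. The peaks of TEKT4, ALPP and NAT8 overlapped the promoter bases shown above. For the other genes the start and the end were not told apart, so their peaks need not be promoter peaks.

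**Figure D4:**
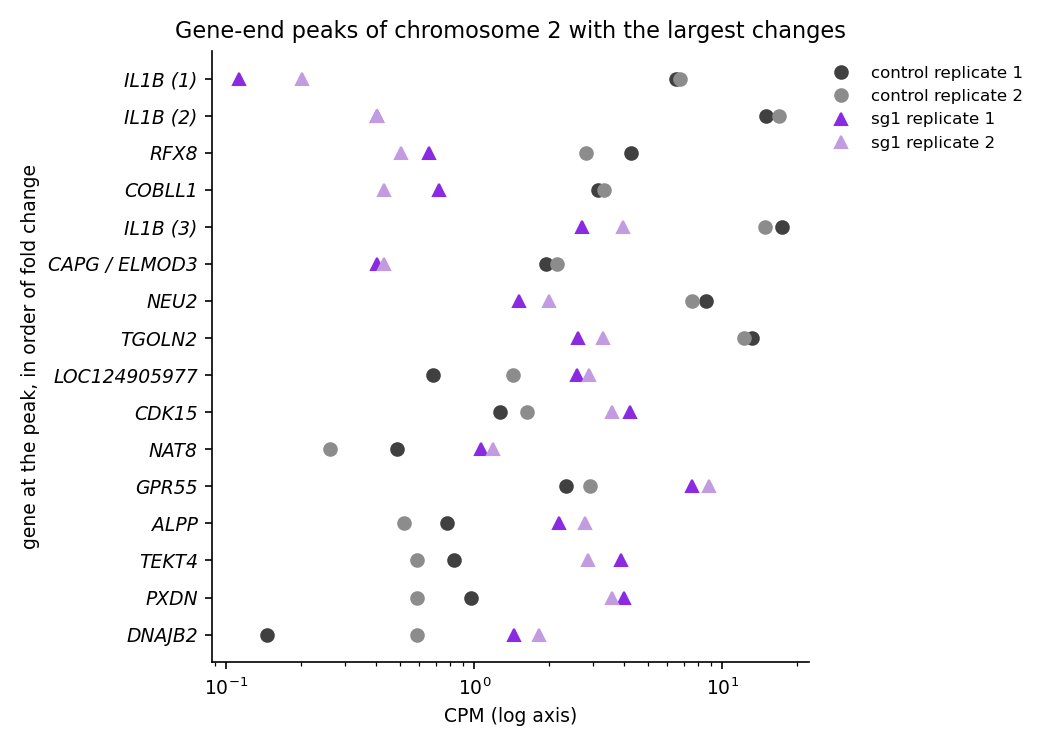
Accessibility in CPM (horizontal log axis) of the 16 gene-end peaks of chromosome 2 with the largest losses and gains (rows, named by the gene at the peak, with the 3 IL1B peaks numbered by size of change), 1 symbol per library: circles for the control and triangles for sg1. In the upper 8 rows both triangles lie to the left of both circles, as at TGOLN2 (13.2 and 12.2 against 2.62 and 3.30 CPM). In the lower 8 they lie to the right, as at GPR55 (2.33 and 2.94 against 7.50 and 8.83 CPM). The rule of choice required the groups to lie apart.

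Away from gene ends the changes were larger. A peak inside IL1B at 112832000 to 112832246 had 87 and 56 control counts against 2 and 4 for sg1 (-5.70, SE 0.43), and a peak between IL1A and IL1B at 112799206 to 112799814 had 185 and 134 against 16 and 3 (-5.27, SE 0.31). A peak inside MYT1L at 2281002 to 2281364, in the lowest segment, had 52 and 26 counts against 5 and 1 (-4.82, SE 0.53). IL18RAP, which encodes a subunit of the interleukin-18 receptor, held a peak at 102436336 to 102436647 with 41 and 12 counts against 4 and 0 (-4.79, SE 0.67). Peaks at 132410719 to 132411076 (-4.84, SE 0.56) and at 191933290 to 191933687, near TMEFF2 (-4.61, SE 0.41), lay outside genes. In all 6 the sg1 libraries, though deeper, had fewer counts than the controls. The rule of choice required the groups to lie apart in CPM.

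The largest gains away from gene ends had almost no control counts. A peak inside PLEKHM3 at 207847667 to 207848242 had 5 and 0 control counts against 149 and 134 for sg1, or 0.243 and 0 against 3.37 and 3.40 CPM (4.57, SE 0.47). The peak at 160583164 to 160583539 had 0 and 2 control counts against 54 and 41, a ratio of 20.4 with a counting interval of 5.49 to 171 (95%), and the peak at 149860522 to 149860947 had 1 and 2 against 76 and 49, a ratio of 17.9 with an interval of 5.98 to 87.9. A peak inside CD28, the gene of a costimulatory receptor of T cells, at 203714054 to 203714482 had 3 and 2 counts against 61 and 59 (3.33, SE 0.53). Those at 128069720 to 128070041 and 155975759 to 155976102 had log2 fold changes of 3.33 (SE 0.54) and 3.22 (SE 0.40). Intervals cover counting error only.

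Genes of chromosome 2 were read at their tallest gene-end peak, which can lie at the start or the end of the gene, and grouped by function. Over all 971 genes with such a peak, 122 were lower (12.6%), beside 8.94% of genes of all chromosomes, and 103 higher (10.6%), beside 30.6%, with a median of 0.00 on chromosome 2 and 0.15 over the genome. No list was tested against these shares, and counts of list members under other settings have no share of all such genes beside them. Of 22 tested inflammatory and interferon genes outside the interleukin-1 family, at 21 peaks, 8 fell (36.4%) and 3 rose (13.6%). Their median was -0.09. CCL20, a chemokine that draws lymphocytes and dendritic cells, went from 82.8 and 79.4 to 47.8 and 47.1 CPM (-0.77, SE 0.06) at 227817894 to 227819182. ADAM17, the protease that sheds TNF, went from 46.4 and 44.9 to 35.6 and 36.7 CPM (-0.34, SE 0.07). CFLAR, an inhibitor of death receptor signalling, went from 27.2 and 28.2 to 21.0 and 20.9 CPM (-0.40, SE 0.08), and its neighbour CASP8, the caspase it restrains, from 23 and 16.6 to 14.6 and 13.4 CPM (-0.52, SE 0.11), a call lost without control replicate 1 (-0.25). RSAD2 and CMPK2, which share a peak (-0.77), and PTPN4 (-0.23) were among the others that fell, and BCL2L11 (0.32), TRAF3IP1 (0.32) and NCK2 (0.40) rose. Against its own 5 Mb segment ADAM17 turned to 0.028 and the CFLAR call was lost (-0.19). Counts without 1 library lay between 6 and 8 lower and 0 and 2 higher, and DESeq2 called 7 and 0.

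In the interleukin-1 family, 8 of 15 genes had a tested gene-end peak. IL1B and the receptor antagonist gene IL1RN (-1.08, SE 0.39) fell, and the receptor gene IL1R1 rose from 4.81 and 6.26 to 9.06 and 8.01 CPM (0.64, SE 0.16). The IL1RN call was lost without control replicate 2 (-0.77), sg1 replicate 1 (-1.36) or sg1 replicate 2 (-0.83), and that of IL1R1 without control replicate 1 (0.45) or sg1 replicate 1 (0.56).

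Transcription factor genes had 4 lower (13.3%) and 2 higher (6.67%) of 30, beside 12.6% and 10.6% of all chromosome 2 genes read so. CREB1, a factor activated by cyclic AMP signalling, went from 44.1 and 47.0 to 32.5 and 34.5 CPM (-0.44, SE 0.07). KLF11, a factor induced by TGF-beta, went from 8.56 and 5.81 to 12.4 and 14.5 CPM (0.88, SE 0.14). MXD1, a partner of MAX that opposes MYC (-0.23), MEIS1, a homeobox cofactor (-0.38), and ATF2 (-0.18) fell, and EPAS1, the hypoxia factor HIF-2 alpha, rose (0.33). The MXD1 and MEIS1 calls were lost without sg1 replicate 1 (-0.22 and -0.33) or sg1 replicate 2 (-0.20 and -0.39). Those of ATF2 and EPAS1 were also lost without sg1 replicate 1. With DESeq2 the calls of MEIS1, ATF2 and EPAS1 were lost. Without 1 library, 1 to 4 of the 30 were lower and 1 to 4 higher, and with DESeq2 2 and 1. Genes of growth factor, TGF-beta, WNT and hedgehog signalling had 1 lower (3.85%) and 3 higher (11.5%) of 26, beside the same 12.6% and 10.6%. GLI2, the hedgehog effector, went from 8.02 and 8.54 to 14.3 and 16.7 CPM (0.90, SE 0.12), and ACVR2A, an activin receptor, from 12.4 and 10.5 to 15.3 and 16.6 CPM (0.47, SE 0.11). ALK, a receptor tyrosine kinase gene, went from 10.1 and 8.22 to 5.02 and 4.36 CPM (-0.97, SE 0.16). FZD7, a WNT receptor, rose (0.21), a call that was lost without each library in turn (0.19 to 0.22).

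Chromatin regulators had 1 lower (5.26%) and 3 higher (15.8%) of 19, beside 12.6% and 10.6% of all chromosome 2 genes read so. KANSL3, a subunit of the NSL acetyltransferase complex, went from 12.8 and 13.1 to 19.2 and 17.3 CPM (0.49, SE 0.10). SMYD5, a methyltransferase (0.46), and DNMT3A, the DNA methyltransferase (0.38), rose, and the peak shared by INO80B, a remodeller subunit, and WBP1 fell (-0.24). The SMYD5 call was lost without control replicate 1 (0.35) or sg1 replicate 2 (0.41), that of DNMT3A without control replicate 2 (0.21), sg1 replicate 1 (0.41) or sg1 replicate 2 (0.40), and that of INO80B without control replicate 2 (-0.17), sg1 replicate 1 (-0.22) or sg1 replicate 2 (-0.23). Matrix and adhesion genes split, with 2 lower (9.52%) and 2 higher (9.52%) of 21, beside the same 12.6% and 10.6%. ITGAV, an integrin subunit (-0.25), and NRP2, a semaphorin and VEGF coreceptor (-0.28), were lower. FN1, fibronectin (0.24), and GPC1, a heparan sulphate proteoglycan (0.35), were higher. Without sg1 replicate 1 none of these 4 passed (-0.21, -0.24, 0.29 and 0.30), and with DESeq2 0 of the 21 were lower and 0 higher, against 2 and 2 with edgeR. Without sg1 replicate 2 GPC1 alone of the 4 was still called.

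Housekeeping genes had 2 lower (6.90%) and 3 higher (10.3%) of 29, beside 12.6% and 10.6% of all chromosome 2 genes read so. The proteasome genes went in opposite directions, PSMD14 from 30.4 and 25.4 to 20.1 and 21.8 CPM (-0.42, SE 0.09; -0.17 and not called against its own segment) and PSMD1 from 10.3 and 8.81 to 13.9 and 13.4 CPM (0.51, SE 0.12). NCL rose from 32.4 and 30.5 to 36.6 and 39.2 CPM (0.27, SE 0.08), a call lost without sg1 replicate 2 (0.24). TUBA4A also rose (0.26), a call lost with DESeq2 and without either sg1 replicate. The peak shared by the chaperonin gene CCT7 and PRADC1 fell (-0.23). That call was lost with library size alone (-0.18) and without control replicate 1 (-0.15), sg1 replicate 1 (-0.23) or sg1 replicate 2 (-0.20). Of 11 blood cell genes of chromosome 2, 9 had no tested gene-end peak; CD8A (-0.09) and the peak SLC11A1 shares with CTDSP1 (0.14) did not pass. With scaling factors from gene-end peaks alone, which moved the median of all tested peaks from 0.02 to -0.14, lower members outnumbered higher ones in all 7 lists from the interleukin-1 family to housekeeping genes. The counts were then 12 lower and 0 higher for inflammatory genes, 8 and 1 for transcription factors and 10 and 2 for growth factor signalling. They were 8 and 1 for chromatin regulators, 6 and 0 for matrix genes and 10 and 1 for housekeeping genes. The interleukin-1 family had 2 and 1 as before. Of all tested peaks of the genome, 23.3% were lower and 6.77% higher with that scaling. On chromosome 2 the shares were 29.0% and 4.09%. These shares take gene-end and other peaks together. The calls of GPC1 (0.19), FN1 (0.083), FZD7 (0.050), SMYD5 (0.30), DNMT3A (0.22) and NCL (0.11) were lost with that scaling. So were the higher calls of BCL2L11, TRAF3IP1, NCK2, EPAS1 and TUBA4A. Against the own segment the calls of IL1RN (-0.91), ITGAV (-0.10), NRP2 (-0.22), MXD1 (-0.069), MEIS1 (-0.22), INO80B (-0.16) and CCT7 (-0.15) were lost.

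Promoter sequence was described for the 1108 start sites, of 811 genes, whose 250 upstream bases overlapped a tested chromosome 2 peak. Any overlap counted as lying under the peak, so some of the 250 bases described can lie outside it. At GYPC, for example, the bases from 126655908 to 126656157 met a peak that ended at 126655999. Neighbouring starts can share a peak. Of the 1108 start sites, 120 lay under a lower peak (10.8%), beside 7.39% of such promoters in the genome. A further 134 lay under a higher one (12.1%), beside 32.4%. Median GC content was 62.2% under lower, 71.6% under higher and 66.4% under remaining peaks, and the median number of CpG sites was 17.5, 26.5 and 23. On other chromosomes the order of GC content was the same, at 60.4%, 68.4% and 64.4%. The peak that overlapped the GYPC promoter went from 5.98 and 5.67 to 1.56 and 1.37 CPM (-1.99). The peak over the GCKR promoter went from 3.50 and 2.35 to 1.13 and 0.786 CPM (-1.62). NCL, with 34 CpG sites and a higher peak, and TP53I3, with 6 and a lower one, differed widely in CpG sites.

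Chromosome 2 promoters were below those of other chromosomes at each GC content. At under 50% GC the median log2 fold change of chromosome 2 promoters was 0.01, a difference of -0.07 from other chromosomes. The difference was -0.12 at 50 to 60%, -0.16 at 60 to 70% and -0.17 at 70% or more. In the last band 74 of 428 chromosome 2 promoters (17.3%) lay under a higher peak, against 45.6% of 4473 on other chromosomes, and 7.01% against 2.41% under a lower peak.

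**Figure D5:**
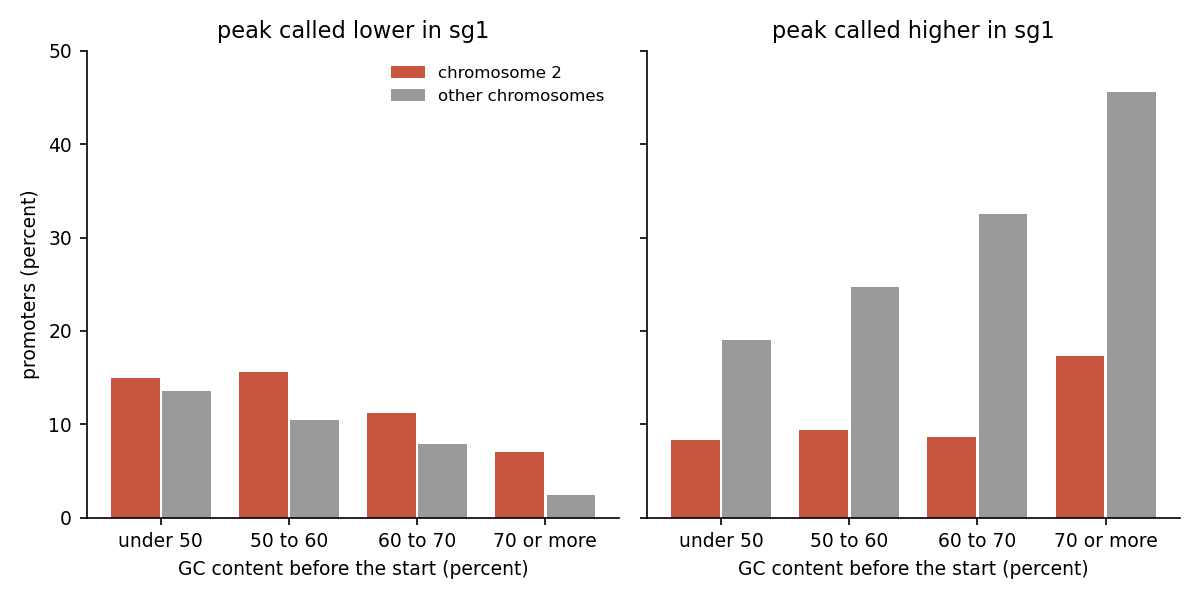
Share of promoters (vertical axis, percent) whose peak was lower (left) or higher (right) in sg1, by GC content of the 250 bases before the start (horizontal axis), for chromosome 2 (red bars) and other chromosomes (grey bars). At 70% GC or more, 17.3% of chromosome 2 promoters and 45.6% of other promoters lay under a higher peak.

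Letters of known motifs were searched on both strands of these 250 bases. The letters GGG and TTTCC separated by any 2 bases, a form of the NF-kB site, were in 6 of 120 promoters under a lower peak (5.00%), 0 of 134 under a higher peak and 19 of 854 others (2.22%), and in 1.77% of all 22199 protein-coding promoters. On other chromosomes they were in 3.41% of promoters under a lower peak and 1.62% under a higher one. The 6 belonged to 5 genes and 4 peaks, and for 2 of these peaks the 30 bases around the letters are shown, from RefSeq (GRCh38.p14), with the matching letters of either strand in capitals. They were NEURL3, a ubiquitin ligase gene, at chr2:96505443-96505472 (minus strand), and ANXA4, an annexin gene, at chr2:69742010-69742039 (plus strand).
NEURL3: gaaatcactgGGAAATCCCCtggatatagt
ANXA4: cccctagagaGGGATTTTCCggtctcgtgg
The NEURL3 peak fell from 6.56 and 6.39 to 2.71 and 2.54 CPM (-1.30, SE 0.19), and the ANXA4 peak from 29.1 and 30.9 to 25.9 and 24.1 CPM (-0.26, SE 0.08). The AP-1 letters TGANTCA were in 8 of the 120 (6.67%), 3 of the 134 (2.24%) and 30 of the 854 (3.51%), and in 5.36% of all promoters. Under peaks of other chromosomes the AP-1 letters were in 9.38% of promoters with a lower peak and 3.55% with a higher one. The CRE letters TGACGTCA were in 1 (0.83%), 5 (3.73%) and 12 (1.41%). Elsewhere they were in 3.09% under a lower and 3.06% under a higher peak, so that difference was not seen on other chromosomes. The TATA box letters TATAAA were in 5 (4.17%), 6 (4.48%) and 35 (4.10%). Their shares on other chromosomes were 9.17% under a lower and 3.62% under a higher peak. These are matches of letters in the window, and no binding was measured.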

How the data were processed

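ATAC-seq counts of 4 LM2 libraries were analysed, 2 with a nontargeting guide and 2 with CECR2 deletion sg1. The deposited table gives raw counts per peak, which the authors obtained from cut-site files with featureCounts 1.6.0, run as single-end, per the file headers. Per the submitters' processing notes, Trimmomatic 0.39, Bowtie2, MACS2 2.2.4, DESeq2 1.32 and deepTools 3.1.3 were among the tools; their roles are not stated. For the genome build, not given in the sources used here, a check was made with the RefSeq GRCh38.p14 gene table: for 1254 genes on chromosome 2, 77.7% had an end no more than 1 kb from a peak, against 28.5% and 30.0% with peaks shifted by 100 kb either way. No genome sequence or exon annotation was used, so positions in exons, introns or UTRs are not given.

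The 109 peaks in the first 250 kb of chromosome 1 were left out of library sizes and fits, which left 21002477, 15561701, 43519018 and 38924086 counts. Their share was 17.9% to 25.4%. Counts of all 184717 testable peaks were fitted together with edgeR 4.0.16 under R 4.3.3, after filterByExpr and TMM, by the quasi-likelihood test on group alone, with Benjamini-Hochberg adjustment over all peaks at an FDR of 0.05. Counts summed over 5 Mb segments were fitted with the same scaling, and peaks were refitted with the median of their segment as an offset. The script was tested on simulated counts. The common dispersion gave a coefficient of variation of 8.13%.

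Alternatives were library size alone, TMM from gene-end peaks alone, no low-count filter, equal depth, DESeq2 1.42.0, each library left out, the replicate block and other segment sizes. The 61 named peaks follow a rule: the largest changes past the FDR per direction and class (8 gene-end and 6 other, with groups apart and a scaled mean of at least 30 counts), the 6 tallest, up to 4 members per list, the longest runs and the extreme segments. Further genes complete a count or were chosen after their values were seen. The members and lists were chosen with earlier results of these data known. Some sequence windows and the values beside them are not reported here. Promoter sequences are from the RefSeq table (22199 protein-coding start sites, 1638 on chromosome 2). Other calculations used Python 3.11.15, pandas 2.3.3, scipy 1.17.1, numpy 2.4.6 and matplotlib 3.10.9.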

Additional observations from a re-analysis of the deposited data

How the results depend on the processing

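With library size only, the medians of gene-end and other peaks were 0.062 and -0.11 and 3 segments were higher. With TMM factors from gene-end peaks alone they were -0.14 and -0.32, 585 peaks were higher and the peak shared by SLC11A1 and CTDSP1 turned from 0.14 to -0.012. At equal depth 591 peaks were higher and the median of other peaks was -0.17. DESeq2 called 1756 peaks lower and 281 higher. Against their own segment 1578 peaks were higher and ADAM17 turned to 0.028. A gene-end distance of 5 kb gave medians of -0.021 and -0.17. Without the 2 tallest peaks, an alternative chosen after seeing the data, 0 segments were higher. Segments of 2 Mb gave 108 lower and 3 higher sums, and segments of 10 Mb 23 lower. The matching shares over the genome are not given here, so these counts stand without a background. With 5 Mb segments 69.4% of all segments were lower. Sums of gene-end peaks alone were lower in 18 and higher in 6 segments. With each library left out in turn, 1870 to 2874 peaks were lower and 444 to 890 higher, 1 to 2 segments were higher, and the medians were 0.011 to 0.030 and -0.18 to -0.16. Over all tested peaks, same-numbered replicates did not deviate together (r = 0.00013). Counting noise in single peaks can hide a shared deviation, so this value cannot show whether the numbers pair libraries. With the replicate block 2982 peaks were lower and 942 higher and 1 of 59 named calls, FZD7, was lost. The offset of chromosome 2 lay between -0.17 and -0.14 in all settings but the one that centres each segment. Of the 59 named calls, 39 held in every alternative and 16 were lost without at least 1 library. However, 28 of the 59 were named for the size of their change, a choice that favours calls that hold. Among those 28 only the NAT8 call was lost in any alternative. Of the calls named only through gene lists, those of CCL20, GLI2, ALK, ACVR2A, CREB1, KLF11, KANSL3 and PSMD1 held throughout. The other list calls did not. The cause of these changes was not tested. Of other peaks under 1 CPM 13.6% were lower, against 51.4% at 10 CPM or more; the part of depth in this was not tested.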
